A study of Mus musculus with 4 samples.

Results

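The transcriptome of liver mononuclear cells 24 hours after concanavalin A (ConA), a plant lectin that activates T cells, was compared with that of naïve liver, gene by gene. The comparison used 2 of the 4 libraries of the series, Naïve (mice labelled naïve, for which the sources used here do not say whether vehicle was given; 2086 cells) and ConA+Veh (mice given ConA and then vehicle, 2779 cells), out of 9300 cells in all. Genes entered when at least 100 unique molecular identifiers (UMIs, 1 per captured RNA molecule) were counted over both libraries, which 9879 of 31053 genes did. The mice were C57BL/6, 8 to 10 weeks old. All cells came from whole dissociated liver enriched on a density gradient, with no sorting by cell type. The remaining libraries, ConA+TCDD and ConA+FICZ, came from mice of the same strain and age given ConA and then a ligand of the aryl hydrocarbon receptor, and their values are set beside those of some genes without a comparison. There was 1 library a side, and the number of mice behind a library is not given in the sources used here, so no test between the conditions was possible. Every interval below is an exact 95% interval for counting error only and says nothing about the spread between mice.

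ConA given into the blood causes an acute hepatitis that depends on T cells, natural killer T (NKT) cells and macrophages, with release of interferon-γ and tumor necrosis factor and influx of leukocytes into the liver. Lymphocytes that leave the resting state take down the quiescence factors and homing receptors that keep them recirculating, raise glycolysis and ribosome production, and enter the cell cycle. Immediate early genes such as *Fos* and *Jun* are transcribed within minutes of a stimulus and are switched off again before the later genes.

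Cells were sorted in silico into gates by the UMIs of marker lists. A cell entered the B gate with at least 2 UMIs of a list of 6 genes that includes *Cd79a*, *Cd79b*, *Ms4a1*, *Ebf1* and *Pax5*, the T gate with at least 2 UMIs of *Cd3d*, *Cd3e*, *Cd3g* and *Trac*, the NK gate with at least 2 UMIs of *Ncr1*, *Klre1*, *Klrb1c*, *Klra8* and *Klri2*, and the myeloid gate with at least 3 UMIs of *Lyz2*, *Csf1r*, *Cd68*, *Adgre1*, *Csf3r*, *Fcgr1* and *Ms4a6c*. Cells with more than 1 UMI of another list were mostly kept out. The B gate held 1081 Naïve cells (51.8%, 49.7 to 54.0) and 801 ConA+Veh cells (28.8%, 27.1 to 30.5). The T gate held 462 cells (22.1%, 20.4 to 24.0) and 739 cells (26.6%, 24.96 to 28.3). The myeloid gate was 4.84% (3.96 to 5.85) of Naïve cells, 101 in number, and 10.6% (9.49 to 11.8) of ConA+Veh cells, 295 in number. NK gate cells numbered 130 (6.23%, 5.23 to 7.36) and 235 (8.46%, 7.45 to 9.55). Thus B cells made up a smaller, and myeloid cells a larger, share of the ConA+Veh library. The higher T gate share turned into a lower one, with a log2 ratio of -0.11 in place of 0.26, when cells were thinned to 1000 UMIs before gating. Each gate holds its own marker list by its rule. The rules also hold down the T list in the B gate and the NK list in the T gate, so these levels are no check of the gates. In the B gates of Naïve and ConA+Veh, B markers summed to 8495 and 5299.6 UMIs per 1000000 UMIs of the gate (CPM). The T list there was at most 25.1 CPM. In the T gates the T list summed to 2657 and 1986 CPM and the NK list to 110.3 and 32.8 CPM.

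The libraries differed in depth, with 5952445 UMIs in Naïve and 19252211 in ConA+Veh and a median of 2161 and 3984 UMIs per cell. The median per cell was higher in ConA+Veh in every gate, from 2786.5 to 7343 UMIs in the T gate and from 1623 to 2574 UMIs in the NK gate, so all values below are shares of a gate's UMIs. A higher CPM over a sum of cells can come from more cells of a type or from more RNA of the gene per cell, which cannot be told apart in the sums over all cells. Naïve and ConA+Veh had 15 cell barcodes in common, and the pairs of libraries had between 4 and 15. The Naïve sums leaned on few cells in 2 gates: 16 T gate cells held 22.3% of the T gate UMIs, and 9 myeloid cells held 39.8% of the myeloid UMIs. The same top 2% of ConA+Veh cells by UMIs held 15.2% and 16.6%.

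Genes past a 2-fold difference were counted as a description of these libraries. Over all cells, 737 of 9879 genes (7.46%) were at least 2-fold higher in ConA+Veh and 1353 (13.7%) at least 2-fold lower. In the B gate 407 of 5987 genes (6.8%) were higher and 854 (14.3%) lower. The T gate had 571 of 6957 genes higher (8.21%) and 679 lower (9.76%). The NK gate, the smallest in UMIs, had 136 of 1481 genes higher (9.18%) and 96 lower (6.48%), and the myeloid gate 189 of 4015 higher (4.71%) and 243 lower (6.05%). The median log2 ratio of all genes was -0.18 over all cells, -0.19 in the B gate, -0.05 in the T gate, 0.14 in the NK gate and 0.05 in the myeloid gate, and these medians are the reference for the gene lists below. Likewise, the percentages above are the reference for every count of list genes past 2-fold. The balance of higher and lower genes depended on scaling. With every cell weighted alike, 1088 genes were higher and 1000 lower over all cells, 460 and 515 in the B gate, 1023 and 519 in the T gate, 174 and 75 in the NK gate, and 665 and 348 in the myeloid gate. Centring on the median gene gave 1040 higher and 961 lower over all cells, 633 and 540 in the B gate, and 100 and 136 in the NK gate. Leaving out the top 2% of cells by UMIs gave 1006 higher and 768 lower genes in the T gate and 618 and 351 in the myeloid gate.

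**Figure D1:**
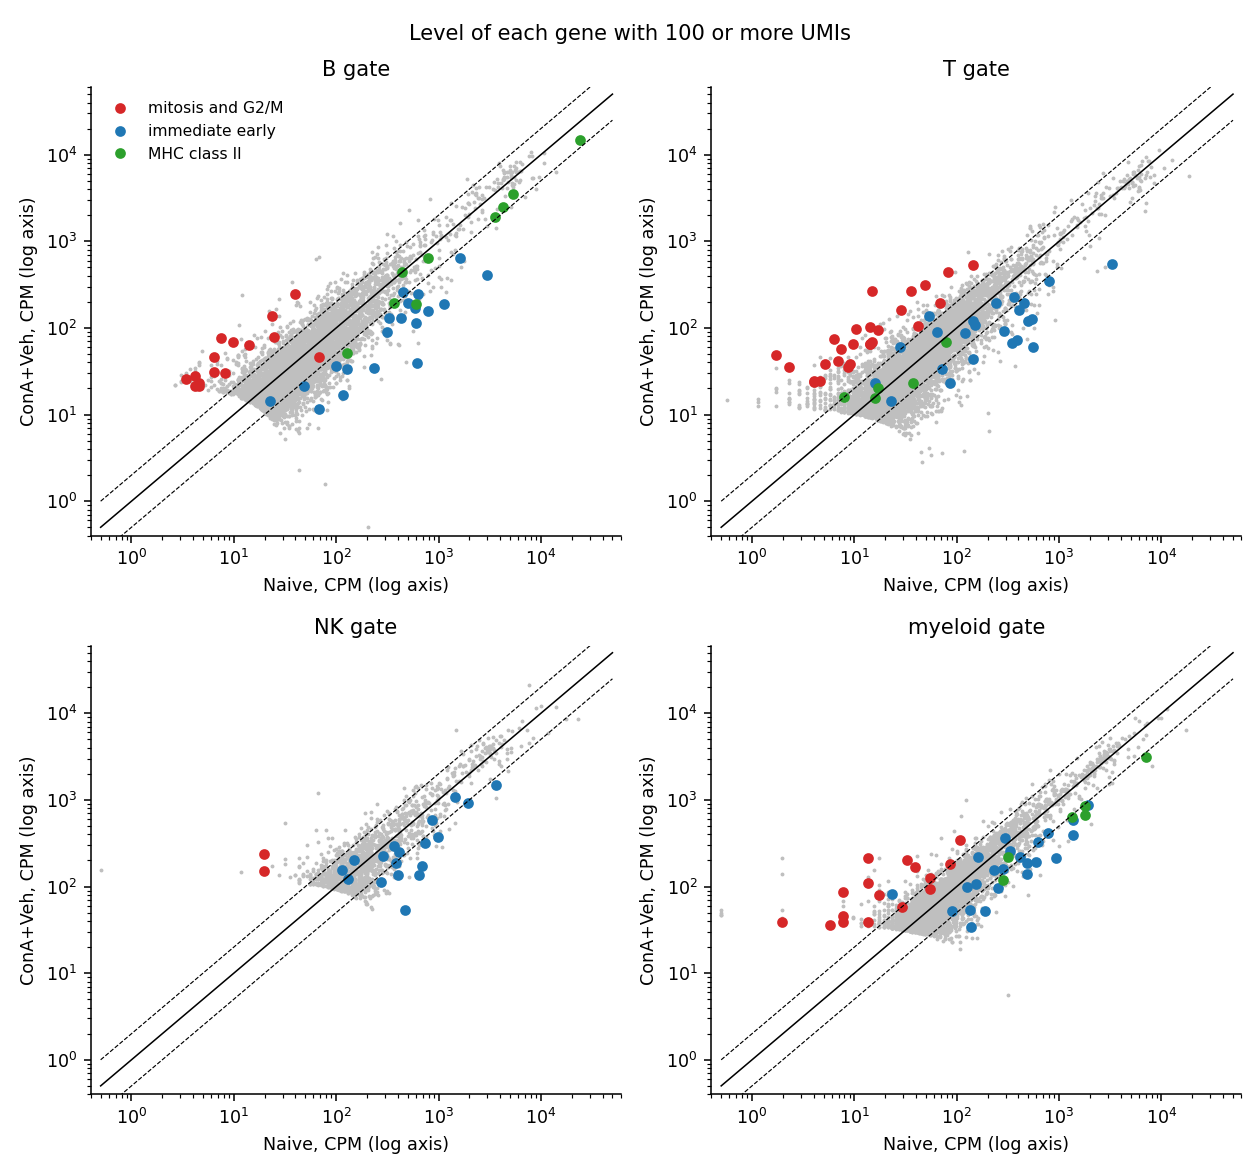
CPM of each gene with 100 or more UMIs in Naïve (horizontal, log scale) against ConA+Veh (vertical, log scale), 1 panel per gate. Sums of 0 are drawn at 0.5 CPM, the solid line marks equal levels and the dashed lines a 2-fold difference. In the T gate 571 genes lie on or above the upper dashed line and 679 on or below the lower one.

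Few genes were higher in every gate. Of 1323 genes with enough UMIs in all 4 gates, 13 (0.983%) were at least 2-fold higher in each of them. In the NK and myeloid gates genes could reach the minimum through ConA+Veh alone. Neither this count nor the ranking of the genes is thus used as support. *Gclm*, the modifier subunit of the enzyme that limits glutathione synthesis (chromosome 3, 122245557 to 122270732, plus strand, mm10), led them. Its level in the B gate was 68.2 CPM in Naïve and 654 CPM in ConA+Veh, a 9.58-fold difference (log2 ratio 3.26, 3.04 to 3.49). The T gate had 128 CPM in Naïve and 756 CPM in ConA+Veh and the NK gate 31.6 CPM in Naïve and 542 CPM in ConA+Veh. In the myeloid gate it was 111 CPM in Naïve and 649 CPM in ConA+Veh. Its NK and myeloid values share the filter named above. In the B gate, UMIs of *Gclm* were found in 138 of 1081 Naïve and 594 of 801 ConA+Veh cells, so the higher level was spread over most B cells. The other ConA libraries held 490.5 CPM (ConA+TCDD) and 369 CPM (ConA+FICZ) in the B gate.

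*Ly6a*, which encodes the surface protein Sca-1 that interferons induce on lymphocytes (chromosome 15, 74994877 to 74998031, minus strand), was higher by the widest margin in NK cells. The NK gate had 67.1 CPM in Naïve and 1194 CPM in ConA+Veh (log2 ratio 4.15, 3.47 to 4.94) and the B gate 519 CPM in Naïve and 2303 CPM in ConA+Veh (log2 ratio 2.15, 2.07 to 2.23). In the T gate the log2 ratio was 1.42 and in the myeloid gate 1.44. The rest of the 10 genes with the largest shared differences follow by their roles. *Top2a*, the DNA topoisomerase of dividing cells, had log2 ratios from 2.43 to 2.95, and *Stmn1*, a microtubule destabiliser of cycling cells, from 1.67 to 3.60. The NK gate values of *Top2a* and *Stmn1* rest on few Naïve UMIs, as given below, and nothing is read from them. *Dut*, which clears dUTP for DNA synthesis, ranged from 1.35 to 2.88, and *Tubb5*, a β-tubulin, from 1.09 to 1.88. *Ran*, the GTPase of nuclear transport, ranged from 1.11 to 1.73, *Nhp2*, a core protein of small nucleolar ribonucleoproteins, from 1.30 to 1.59, and *Mif*, a cytokine that holds macrophages in place, from 1.11 to 1.95. *Fam162a*, a mitochondrial protein induced by hypoxia, ranged from 1.37 to 1.90.

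**Figure D2:**
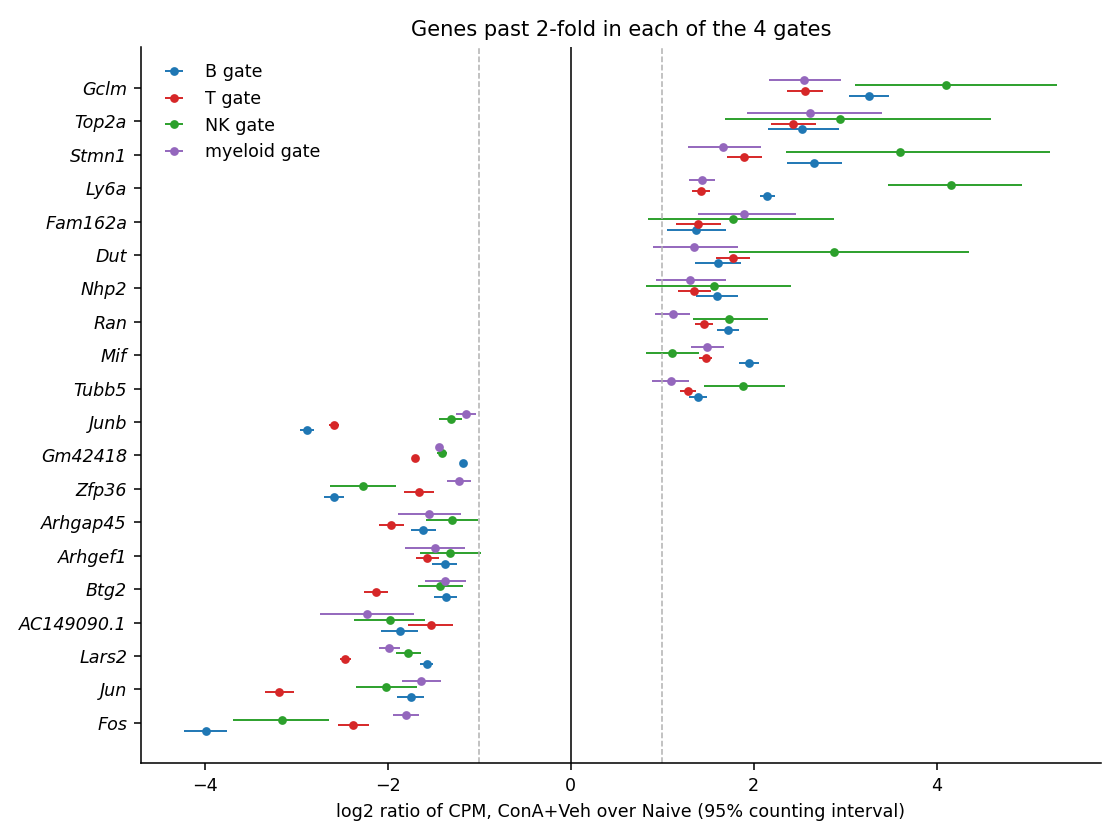
Log2 ratio of CPM, ConA+Veh over Naïve, in the B, T, NK and myeloid gates (1 symbol per gate) for the genes with the largest differences shared by all 4 gates, with exact 95% counting intervals. *Gclm*, *Top2a*, *Stmn1* and *Ly6a* lie on the higher side in every gate and *Fos*, *Jun* and *Lars2* on the lower side in every gate. The NK gate values of *Top2a* and *Stmn1* rest on few Naïve UMIs, and nothing is read from them. In the NK and myeloid gates genes could reach the UMI minimum through ConA+Veh alone.

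Genes of mitosis were higher in ConA+Veh in each gate by the sum over the whole list. Summed over the whole list of 26 genes, whatever their UMIs, they were 619 CPM in Naïve and 3287 CPM in ConA+Veh in the T gate, 262 and 1069.5 CPM in the B gate, and 567 and 2146 CPM in the myeloid gate. In the T gate all 26 genes reached the UMI minimum and were at least 2-fold higher, with a median log2 ratio of 2.59 against -0.05 for all genes. Of the genes at the minimum, 15 of 16 were so in the myeloid gate (median 2.26) and 14 of 15 in the B gate (median 2.37), where the centromeric histone *Cenpa* was the exception with a log2 ratio of -0.59. Genes of these 2 gates could reach the minimum through ConA+Veh alone, so their counts and medians are not used as support. The myeloid gate held 515076 Naïve and 2679029 ConA+Veh UMIs, and the B gate 2653385 and 4384293. The sums over the whole list need no minimum. The kinase *Cdk1* (3.47), the spindle midzone protein *Prc1* (4.49) and the kinetochore protein *Cenpf* (4.32) were among the 10 highest ratios of the myeloid gate, as the spindle proteins *Aspm* (4.06) and *Tpx2* (3.56) were in the T gate and *Cdca8* (3.13), of the chromosomal passenger complex, in the B gate. In the NK gate 2 genes of the list, *Top2a* and *Stmn1*, reached the minimum, with 5 Naïve UMIs each; they did so through their ConA+Veh counts, so nothing is read from their direction. The whole list, which needs no minimum, summed to 134 and 1183 CPM there (log2 ratio 3.14, 2.65 to 3.68). Of its 26 genes, 13 were at 0 in the Naïve NK gate. *Ube2c*, which encodes the ubiquitin-conjugating enzyme of the anaphase-promoting complex, was 14.9 CPM in Naïve and 265 CPM in ConA+Veh in the T gate (log2 ratio 4.15, 3.60 to 4.77), with UMIs in 12 Naïve and 249 ConA+Veh cells. *Hmmr*, a spindle and hyaluronan-binding protein, was 1.71 CPM in Naïve and 48.4 CPM in ConA+Veh (log2 ratio 4.82, 3.26 to 7.10) on 3 Naïve UMIs, and *Ccnb1*, cyclin B1, was 2.29 CPM in Naïve and 35.3 CPM in ConA+Veh (log2 ratio 3.95, 2.58 to 5.83). Under every alternative run, the median lay between 2.51 and 4.19 in the T gate. The medians of the B gate (2.36 to 4.34) and the myeloid gate (2.13 to 3.86) share the filter named above. Their ranges are likewise not used as support.

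Genes of DNA replication and the G1/S transition were higher in each gate by the sum over the whole list, least in the myeloid gate. The log2 ratios of the sums were 1.43 (T), 1.16 (B), 1.15 (NK, 0.93 to 1.38) and 0.40 (myeloid, 0.28 to 0.53). Of the genes at the minimum, 22 of 27 were at least 2-fold higher in the T gate (median 1.53) and 16 of 21 in the B gate (median 1.39). In the myeloid gate 2 of 18 were (median 0.38), and in the NK gate 1 of 4 (median 0.47). The NK median was 1.27 at a minimum of 50 UMIs. These counts depend on which genes reached the minimum. The myeloid median was 2.52 without the top 2% of cells by UMIs and 1.30 with every cell weighted alike, so it depended on how the large cells of that gate were weighted. Replication-dependent and variant histones followed in T cells, with a log2 ratio of 0.40 (0.37 to 0.43) for the sum over the whole list. At the minimum 13 of 28 were at least 2-fold higher and 1 lower, counts that again depend on which genes reached it. The higher ones were led by *Hist1h1b* (2.59) and *Hist1h2ab* (2.50), both core or linker histones made during DNA replication.

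The sequences before the start of 4 of these mitotic genes are shown because the group was higher together. Promoters of G2/M genes are known for CCAAT boxes, bound by NF-Y, and for the cell cycle homology region (CHR, here TTTGAA), bound by the DREAM and MuvB complexes. The 250 bases before each start are from RefSeq (GRCm38.p6), written 5′ to 3′ along the gene, with matches to CCAAT and TTTGAA on either strand in capitals; overlapping matches run together. *Ube2c* (chr2:164769679-164769928, plus strand) has 6 CCAAT matches, 2 of which overlap, and 1 TTTGAA match.
Ube2c: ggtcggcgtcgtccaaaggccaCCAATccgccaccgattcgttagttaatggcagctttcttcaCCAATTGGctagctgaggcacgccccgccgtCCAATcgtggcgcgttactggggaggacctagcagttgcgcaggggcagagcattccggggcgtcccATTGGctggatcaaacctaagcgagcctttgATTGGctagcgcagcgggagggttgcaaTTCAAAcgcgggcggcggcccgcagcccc
*Ccnb1* (chr13:100786487-100786736, minus strand) has 2 CCAAT matches.
Ccnb1: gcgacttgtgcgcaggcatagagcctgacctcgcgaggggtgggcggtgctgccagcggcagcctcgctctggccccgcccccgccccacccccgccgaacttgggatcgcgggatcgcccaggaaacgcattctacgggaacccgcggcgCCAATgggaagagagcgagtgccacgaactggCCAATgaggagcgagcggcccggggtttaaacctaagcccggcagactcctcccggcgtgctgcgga
*Hmmr* (chr11:40733438-40733687, minus strand) has 5 CCAAT matches.
Hmmr: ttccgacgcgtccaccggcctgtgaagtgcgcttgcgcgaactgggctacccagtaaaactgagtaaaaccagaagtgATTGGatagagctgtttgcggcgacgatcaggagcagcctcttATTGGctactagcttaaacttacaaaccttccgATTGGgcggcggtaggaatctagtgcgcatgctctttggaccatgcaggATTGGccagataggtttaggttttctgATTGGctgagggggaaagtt
*Top2a* (chr11:99024190-99024439, minus strand) has 6 CCAAT matches and 2 TTTGAA matches.
Top2a: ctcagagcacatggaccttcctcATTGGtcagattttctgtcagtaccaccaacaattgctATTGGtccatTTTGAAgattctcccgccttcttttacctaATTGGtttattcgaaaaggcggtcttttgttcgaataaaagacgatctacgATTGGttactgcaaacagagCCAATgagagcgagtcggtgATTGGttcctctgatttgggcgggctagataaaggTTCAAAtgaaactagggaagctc
Among the 21 promoters of the 21 list genes searched, 19 (90.5%) held CCAAT and 8 (38.1%) TTTGAA. Of the 32851 promoters of 27025 genes searched, 33.8% and 15.99% did. Both shares are over the 250 bases before the start. A match is a description of these letters and no evidence of binding here.

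Immediate early genes were lower in ConA+Veh. In the B gate 18 of 20 list genes were at least 2-fold lower (median log2 ratio -1.81 against -0.19 for all genes), in the T gate 13 of 23 (median -1.22), in the NK gate 10 of 18 (median -1.04) and in the myeloid gate 11 of 23 (median -0.93). *Fos*, an AP-1 subunit (chromosome 12, 85473890 to 85477273, plus strand), was 619 CPM in Naïve and 39.0 CPM in ConA+Veh in the B gate (log2 ratio -3.99, -4.22 to -3.76), and its log2 ratios were -2.38 in the T gate, -3.15 in the NK gate and -1.80 in the myeloid gate. *Jun*, its partner (chromosome 4, 95049034 to 95052222, minus strand), was lowest relative to Naïve in the T gate, with 553 CPM in Naïve and 60.7 CPM in ConA+Veh (log2 ratio -3.19, -3.35 to -3.03). *Junb* (chromosome 8, 84974484 to 84978718, minus strand), a further AP-1 subunit, had log2 ratios from -2.88 in the B gate to -1.15 in the myeloid gate. *Zfp36*, which promotes decay of cytokine mRNAs, ranged from -2.59 (B) to -1.22 (myeloid), and *Btg2*, an antiproliferative factor, from -2.13 (T) to -1.36 (B). Under every alternative the list medians lay between -1.88 and -1.54 in the B gate, -1.31 and -0.74 in the T gate, -1.18 and -0.88 in the NK gate and -1.26 and -0.90 in the myeloid gate. The dual-specificity phosphatase *Dusp1* was lower in the B (-2.76) and T (-2.42) gates.

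A few members of this list went the other way. The orphan nuclear receptors *Nr4a2* and *Nr4a3*, induced by antigen receptor signals, were higher in the T gate with log2 ratios of 1.36 and 1.12, whereas their relative *Nr4a1* was lower in the B gate (-2.32) and the myeloid gate (-2.13). The activation marker *Cd69* was higher in the myeloid gate (1.83). The inducible heat shock genes *Hspa1a* and *Hspa1b* were also lower, at 111 CPM in Naïve and 12.96 CPM in ConA+Veh (log2 ratio -3.10, -3.45 to -2.75) and 62.3 CPM in Naïve and 8.27 CPM in ConA+Veh (-2.91) in the T gate, while the constitutive chaperone *Hsp90ab1* was higher there (2664 CPM in Naïve and 6154 CPM in ConA+Veh, 1.21). Of the list of heat shock proteins and cytosolic chaperones, 2 of 15 genes were at least 2-fold higher and 3 lower in the T gate (median 0.65), 7 of 15 higher and none lower in the B gate (median 0.95), and 2 of 12 higher and none lower in the NK gate (median 0.65). Among all genes, 8.21% were higher and 9.76% lower in the T gate, 6.8% higher in the B gate and 9.18% higher in the NK gate.

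The 18 genes (1.36% of 1323) at least 2-fold lower in each gate also held nuclear and ribosomal RNA-linked transcripts. *Gm42418*, a lincRNA (chromosome 17, 39846958 to 39848788), had log2 ratios from -1.70 to -1.18, and *Lars2*, the mitochondrial leucyl-tRNA synthetase, from -2.46 to -1.57. Reads of ribosomal RNA can map to both loci, so these values are uncertain. *Malat1*, an abundant nuclear noncoding RNA, was 6935 CPM in Naïve and 2245 CPM in ConA+Veh in the T gate (-1.63) and lower in the B gate as well (-1.12). The median percentage of mitochondrial UMIs per cell was lower too, 4.47% in Naïve and 2.66% in ConA+Veh. Yet cells under 200 genes or over 10% mitochondrial were 150 of 2086 in Naïve and 464 of 2779 in ConA+Veh. Without them 435 of 462 T gate cells were left in Naïve and 585 of 739 in ConA+Veh. The median log2 ratio of the mitochondrial-encoded genes over all cells was then -0.62 in place of -0.24. Beyond this filter, the part of mitochondrial content in these differences was not tested.

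Growth genes were higher by the sum over the whole list, opposite to the immediate early genes. The log2 ratios of the sums, which need no minimum, were 1.06 (B), 0.99 (T), 0.82 (NK, 0.71 to 0.93) and 0.68 (myeloid, 0.63 to 0.74). Of the ribosome biogenesis list, 9 of 24 genes were at least 2-fold higher in the B gate (median log2 ratio 0.75), 7 of 25 in the T gate (0.82), 7 of 12 in the NK gate (1.13) and 5 of 23 in the myeloid gate (0.56). Shares over all genes of the same gates were 6.8%, 8.21%, 9.18% and 4.71%. The NK median was 0.40 at a minimum of 50 UMIs, and the myeloid median 1.46 without the top 2% of cells by UMIs. Genes of the NK and myeloid gates could reach the minimum through ConA+Veh alone, so their counts and medians are not used as support. *Npm1*, a nucleolar chaperone, was higher in each gate (1.48, 1.18, 1.22 and 1.04 in the B, T, NK and myeloid gates), and so were *Odc1*, the first enzyme of polyamine synthesis (1.20, 0.89, 1.04 and 1.15), and the mitochondrial chaperone *Hspd1* (1.72, 1.38, 1.44 and 0.67). *Myc*, the transcription factor that drives much of this list, was not among them: it was 309 CPM in Naïve and 88.5 CPM in ConA+Veh in the B gate (log2 ratio -1.80, -1.98 to -1.63), -0.27 on the log2 scale in the T gate and 1.04 in the myeloid gate.

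Glycolysis genes were higher unevenly. The list median was 0.62 in the B gate, 0.77 in the T gate, 0.78 in the NK gate and 0.62 in the myeloid gate. Those of the NK and myeloid gates share the filter named above. Summed over the whole list, the log2 ratios were 0.78 (B), 0.86 (T), 0.65 (NK) and 0.50 (myeloid). *Tpi1*, triosephosphate isomerase, *Pgk1*, phosphoglycerate kinase, and *Ldha*, which makes lactate, led in the B gate with log2 ratios of 1.78, 1.88 and 1.72. *Slc16a3*, the lactate exporter, led in the T gate (1.97). *Gapdh* and *Eno1*, of the same pathway, stayed within 2-fold, at 0.23 and 0.15 in the B gate and 0.29 and 0.39 in the T gate. Nuclear genes of oxidative phosphorylation had medians of 0.73, 0.59, 0.46 and 0.45 in the B, T, NK and myeloid gates, while those encoded by the mitochondrial genome had -0.50, -0.06, -0.62 and -0.36. The T gate value of the latter lay at the median of all genes (-0.05). It was 0.52 with every cell weighted alike and 0.29 with gates from cells thinned to 1000 UMIs. Without cells under 200 genes or over 10% mitochondrial it was -0.49, so no direction is read from it.

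The unfolded protein response list, which holds chaperones of the endoplasmic reticulum, was higher by its sum in each gate and most in the NK gate. Summed whatever the UMIs, its log2 ratio was 1.23 (1.13 to 1.34) in the NK gate. The sums of the T, B and myeloid gates gave 0.63, 0.39 and 0.32. Of its genes at the minimum, 9 of 14 were at least 2-fold higher in the NK gate (median 1.70). The B gate had 5 of 17 higher and 2 lower (0.68) and the T gate 4 of 17 higher and 1 lower (0.76). In the myeloid gate 0 of 15 passed 2-fold either way (0.17). Genes of the NK gate (253256 Naïve and 806329 ConA+Veh UMIs) could reach the minimum through ConA+Veh alone. Its count and median are thus not used as support. The myeloid median was 1.24 without the top 2% of cells by UMIs and 1.05 with every cell weighted alike. The T gate median fell to 0.19 without cells under 200 genes or over 10% mitochondrial. *Pdia6*, a protein disulfide isomerase, was 63.2 CPM in Naïve and 450.2 CPM in ConA+Veh in the NK gate (log2 ratio 2.83, 2.11 to 3.66), *Sdf2l1*, a cofactor of BiP, 51.3 CPM in Naïve and 299 CPM in ConA+Veh (log2 ratio 2.54, 1.74 to 3.47), and *Hspa5*, BiP itself, 565 CPM in Naïve and 1318 CPM in ConA+Veh (log2 ratio 1.22, 0.97 to 1.49). Of the stress-response genes of the list, *Atf4*, a transcription factor of the amino acid response, was -0.51 in the NK gate, *Asns*, asparagine synthetase, was higher over all cells on 6 and 202 UMIs (log2 ratio 3.38, 2.23 to 4.84), and *Ppp1r15a*, which restarts translation by dephosphorylating eIF2α, was lower in the B (625 CPM in Naïve and 66.8 CPM in ConA+Veh, -3.23) and T gates (-2.16).

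**Figure D3:**
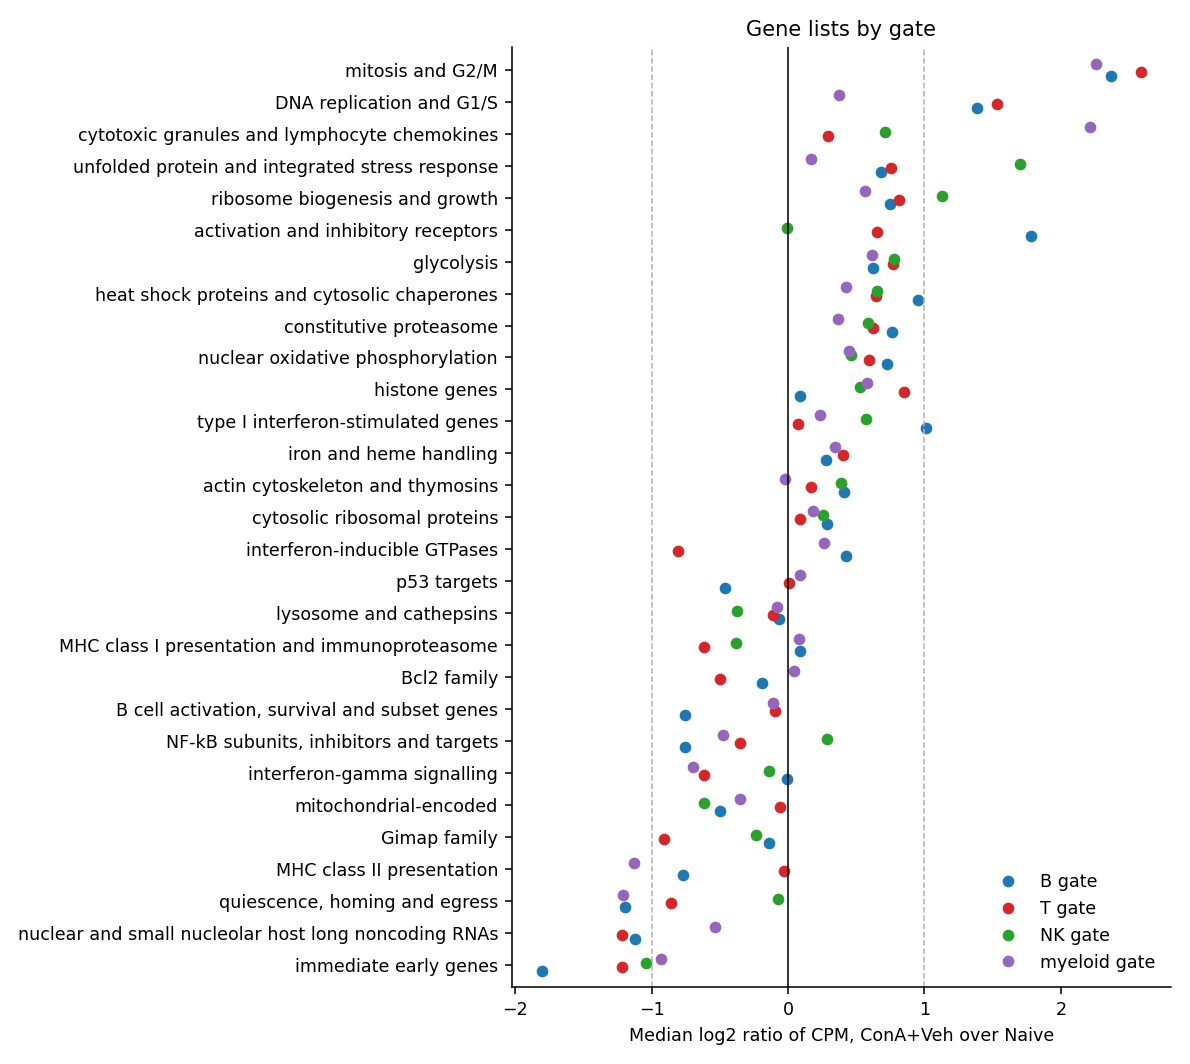
Median log2 ratio, ConA+Veh over Naïve, of each gene list with at least 5 genes at the UMI minimum in at least 3 gates, 1 symbol per gate. The immediate early list reaches furthest to the left (-1.81 in the B gate) and the mitosis list furthest to the right (2.59 in the T gate).

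Quiescence and homing genes were lower in the B, T and myeloid gates. In the B gate 11 of 17 list genes were at least 2-fold lower (median -1.20), in the T gate 8 of 18 (median -0.86) and in the myeloid gate 5 of 8 (median -1.21). The NK gate was divided, with 2 of 8 genes 2-fold lower and 4 of 8 above 0 (median -0.07 against 0.14 for all genes). None of the list was 2-fold higher in any gate. *Klf2*, the factor that keeps lymphocytes quiescent and drives *S1pr1*, was 904 CPM in Naïve and 123 CPM in ConA+Veh in the T gate (log2 ratio -2.88, -3.00 to -2.77) and had a log2 ratio of -1.91 in the B gate. *S1pr1* itself, the receptor for exit into blood and lymph, was 134 CPM in Naïve and 25.1 CPM in ConA+Veh in the T gate (log2 ratio -2.42, -2.69 to -2.14) and -1.16 in the B gate. *Il7r*, the survival receptor of resting and memory T cells (chromosome 15, 9505788 to 9530176, minus strand), was 370.4 CPM in Naïve and 36.5 CPM in ConA+Veh (log2 ratio -3.34, -3.54 to -3.14), with UMIs in 249 of 462 Naïve and 181 of 739 ConA+Veh cells although the latter had the higher depth. The lymph node homing receptor *Ccr7* did not share this pattern in T cells, at 0.26. In B cells *Ccr7* was lower (-1.52), with the gut homing integrin *Itgb7* (-2.70) and the chemokine receptor *Cxcr4* (-2.36).

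Type I interferon-stimulated genes were higher in the B and NK gates more than in the T and myeloid gates. Summed over the whole list, the log2 ratio was 0.75 (0.72 to 0.78) in the B gate and 0.79 (0.66 to 0.91) in the NK gate. It was 0.26 in the myeloid gate and 0.21 in the T gate. Of the type I list, 12 of 23 genes were at least 2-fold higher in the B gate (median 1.01), 2 of 7 in the NK gate (0.57), 3 of 31 in the myeloid gate (0.24) and none of 19 in the T gate, where 2 were 2-fold lower (0.07). Among all genes, 6.8% (B), 9.18% (NK), 4.71% (myeloid) and 8.21% (T) were higher, and 9.76% were lower in the T gate. *Isg15*, a ubiquitin-like modifier, was 26.0 CPM in Naïve and 164 CPM in ConA+Veh in the B gate (log2 ratio 2.66, 2.30 to 3.03), and *Ifi27l2a* 828 CPM in Naïve and 3105 CPM in ConA+Veh (log2 ratio 1.91, 1.84 to 1.97). The restriction factors *Bst2*, tetherin, and *Ifitm3*, which blocks viral fusion, were higher in the B gate by 1.89 and 3.25 on the log2 scale, and *Zbp1*, a sensor of Z-form nucleic acids, by 2.18. *Ifit3* (-0.06) and *Ddx58* (-0.25), classic members of the same response, were not. In the NK gate *Isg15* (1.99) and *Bst2* (2.12) were the 2 that passed 2-fold.

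Interferon-γ and its inducible GTPases were lower in the T gate. *Ifng* was lower in both lymphocyte gates that express it, at 102 CPM in Naïve and 26.2 CPM in ConA+Veh in the T gate (log2 ratio -1.97, -2.26 to -1.67) and 619.9 CPM in Naïve and 215 CPM in ConA+Veh in the NK gate (log2 ratio -1.53, -1.85 to -1.21). The guanylate-binding and immunity-related GTPases had a median of -0.81 in the T gate, with 3 of 11 at least 2-fold lower, of which *Gbp9* was -1.93 and *Tgtp2* -1.91, and a median of 0.42 in the B gate, where *Tgtp2* (1.78) and *Ifi47* (1.37) were higher. With every cell weighted alike the B gate median of the GTPases was 1.501, beside 1.45 for the type I list. In the myeloid gate *Gbp5*, a guanylate-binding protein of inflammasome activation, was higher (1.40), as 1 of 10 GTPases past 2-fold. Summed over the GTPase list, the log2 ratio there was -0.10 (-0.23 to 0.04). Of 12 interferon-γ signalling genes in that gate, 2 were at least 2-fold higher and 2 lower. All genes there had 4.71% higher and 6.05% lower. Of the 12, 4 were above 0 and the median was -0.70, so the higher genes named next are not typical of the list. *Cxcl10*, the interferon-induced chemokine that binds CXCR3, was 93.2 CPM in Naïve and 441 CPM in ConA+Veh in the myeloid gate (log2 ratio 2.24, 1.83 to 2.69), found in 11 of 101 Naïve and 108 of 295 ConA+Veh cells. The receptor chain *Ifngr1* was lower in the same gate (315 CPM in Naïve and 113 CPM in ConA+Veh, -1.48), and its ligand-induced target *Cd274*, PD-L1, higher (1.26).

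MHC class II genes, which present antigen to CD4+ T cells, were lower in the myeloid gate. In the myeloid gate 5 of 6 MHC class II genes were at least 2-fold lower (median -1.13), led by the β chain *H2-Ab1* with 1794 CPM in Naïve and 666 CPM in ConA+Veh (log2 ratio -1.43, -1.55 to -1.31). The 8 markers of conventional dendritic cells, which carry much MHC class II, summed to 408 CPM in Naïve and 101 CPM in ConA+Veh in the same gate; none was at 0 in either library, 1 reached the minimum (*Batf3*, -0.32), and their part in the result was not tested. In the B gate 2 of 9 genes were 2-fold lower, beside 14.3% of all genes there, and the median was -0.77. The peptide-loading subunit *H2-DMa* was at 0.01 and *H2-Ob* at -1.65. The invariant chain *Cd74* was 24307 CPM in Naïve and 14609 CPM in ConA+Veh (log2 ratio -0.73, -0.75 to -0.72). MHC class I was lower in the T gate, where 6 of 18 genes passed 2-fold (median -0.61), among them the heavy chains *H2-D1* (-1.21) and *H2-K1* (-1.17). The proteasome activator *Psme2* was higher in the B (1.48) and NK (1.09) gates, and it lay at 0.52 in the T gate.

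**Figure D4:**
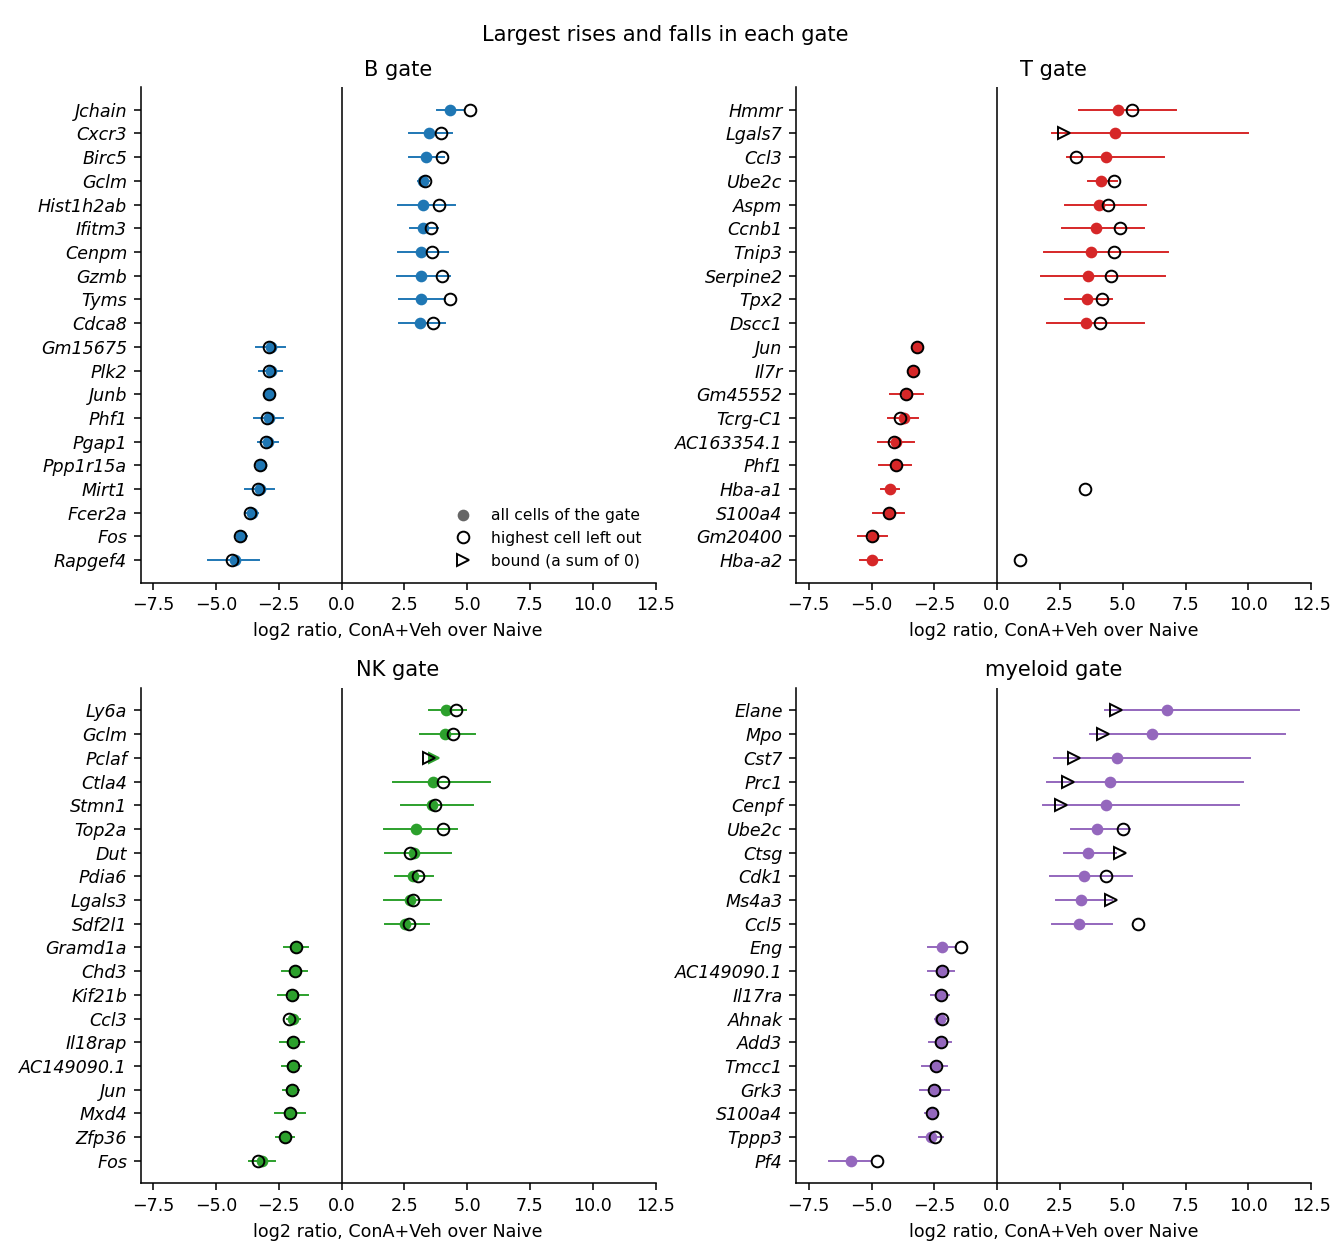
Log2 ratio of CPM, ConA+Veh over Naïve, of the 10 largest rises and 10 largest falls in each gate, with exact 95% counting intervals; open circles give the ratio with the highest cell of the gene left out of each library. Triangles mark lower bounds of the size, filled for *Pclaf* (0 Naïve UMIs in the NK gate) and open where leaving out that cell leaves a library at 0. *Elane* leads the myeloid panel at 6.77 and *Pf4* ends it at -5.84.

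Receptors of mature follicular B cells were lower in the B gate. *Fcer2a*, CD23, the low-affinity IgE receptor of mature B cells (chromosome 8, 3681737 to 3694175, minus strand), was 479 CPM in Naïve and 40.4 CPM in ConA+Veh (log2 ratio -3.57, -3.80 to -3.34), with UMIs in 650 of 1081 Naïve and 107 of 801 ConA+Veh cells. The complement receptor *Cr2*, CD21, had a log2 ratio of -1.90, the complement decay factor *Cd55* -2.62, the ICOS ligand *Icosl* -2.12 and *Cd83*, which stabilises surface MHC class II, -1.65. Of the 19 B cell subset and activation genes at the minimum, 6 were 2-fold lower and 1 higher, beside 14.3% lower and 6.8% higher of all genes there. The lowest ratio was that of *Rapgef4*, a cAMP-regulated exchange factor for Rap, at 43.0 CPM in Naïve and 2.28 CPM in ConA+Veh (log2 ratio -4.24, -5.33 to -3.30). *Nfkbid*, an atypical IκB needed for some B cell responses, was 411 CPM in Naïve and 64.3 CPM in ConA+Veh (-2.68), and *Tsc22d3*, GILZ, a glucocorticoid-induced gene, was 1191 CPM in Naïve and 263 CPM in ConA+Veh (log2 ratio -2.18, -2.28 to -2.08), and was lower in the T gate too (481 CPM in Naïve and 74.2 CPM in ConA+Veh).

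Among the genes that were higher in B cells, *Cxcr3* (chromosome X, 101731535 to 101734269, minus strand), the receptor of *Cxcl10*, was 4.90 CPM in Naïve and 54.7 CPM in ConA+Veh (log2 ratio 3.48, 2.68 to 4.41), found in 8 Naïve and 138 ConA+Veh cells. *Ly6c2* (2.84) and the interleukin-2 receptor chain *Il2ra* (1.78) were higher beside it. *Birc5*, survivin, was 7.54 CPM in Naïve and 76.9 CPM in ConA+Veh (log2 ratio 3.35, 2.70 to 4.08), in 4 and 82 cells. *Jchain* (chromosome 5, 88519809 to 88527891, minus strand), which joins secreted IgM and IgA, had the highest ratio of the gate with 12.1 CPM in Naïve and 239 CPM in ConA+Veh (log2 ratio 4.31, 3.802 to 4.86), but its 1048 UMIs lay in 5 of 801 cells and 648 in 1 of them; ConA+TCDD had 0 and ConA+FICZ 89.9 CPM. *Gzmb*, granzyme B, a product of cytotoxic lymphocytes, had 9 and 133 UMIs in the B gate, the latter in 120 cells with at most 2 each; the red cell transcript *Hbb-bs* was spread in the same way (95 UMIs in 87 cells). At a median of 2119 and 4059 UMIs per cell in Naïve and ConA+Veh, the B gate thus held a few UMIs of both transcripts. Whether those of *Gzmb* are background or expression was not tested, so its ratio there is not read.

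In T cells the proliferation genes above were accompanied by receptors of activation. Summed over the whole list of 18 activation and inhibitory receptors, the log2 ratio was 0.68 (0.63 to 0.73). Of the 16 at the minimum, 8 were at least 2-fold higher and 2 lower, beside 8.21% higher and 9.76% lower of all genes there. Genes of this gate could reach the minimum through ConA+Veh alone, so the count is not used as support. *Pdcd1*, PD-1, was 8.00 CPM in Naïve and 32.8 CPM in ConA+Veh (log2 ratio 2.04, 1.26 to 2.93), the inhibitory receptor *Tigit* had a log2 ratio of 1.80, the costimulatory receptor *Tnfrsf9*, 4-1BB, 1.79, *Ctla4* 1.51 and *Il2ra* 1.38. *Cd44*, a marker of memory cells, was lower (-1.18), and so was *Tox* (-1.03), a factor of exhausted and developing T cells. Granzyme B (*Gzmb*) was 277 CPM in Naïve and 769 CPM in ConA+Veh (log2 ratio 1.47, 1.34 to 1.61), whereas *Fasl*, the death ligand, was 75.5 CPM in Naïve and 14.6 CPM in ConA+Veh (log2 ratio -2.37, -2.74 to -2.004) and the chemokine *Ccl5* 2347 CPM in Naïve and 456 CPM in ConA+Veh (log2 ratio -2.36, -2.43 to -2.30). *Tnip3*, an inhibitor of NF-κB signalling, had 2 and 124 UMIs (log2 ratio 3.74, 1.86 to 6.80), and *Serpine2*, a serine protease inhibitor, 2 and 114 UMIs (log2 ratio 3.62, 1.74 to 6.68). *Lgals7*, a galectin, had 1 and 119 UMIs (log2 ratio 4.68, 2.18 to 10.00), with 31 of the latter in 1 cell. *Ccl3*, a macrophage-attracting chemokine, had 3 and 282 UMIs (log2 ratio 4.34, 2.78 to 6.63), of which 200 lay in 1 of 26 cells.

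Transcripts of NKT and innate-like T cells were lower in the T gate. Of 7 markers 5 reached the minimum and 4 were at least 2-fold lower (median -2.13), with a summed level of 430.4 CPM in Naïve and 88.9 CPM in ConA+Veh. *Cxcr6*, the receptor that holds NKT and resident T cells in the liver sinusoids, was 264 CPM in Naïve and 41.5 CPM in ConA+Veh (log2 ratio -2.67, -2.87 to -2.46), *Zbtb16*, PLZF, which defines the NKT lineage, 30.3 CPM in Naïve and 6.91 CPM in ConA+Veh (log2 ratio -2.13, -2.70 to -1.56), and *Tcrg-C1*, a γ chain constant segment, 53.7 CPM in Naïve and 4.07 CPM in ConA+Veh (log2 ratio -3.72, -4.34 to -3.14). The sum over the same markers was 70.8 CPM in ConA+TCDD and 64.2 CPM in ConA+FICZ. *S100a4*, a calcium-binding protein of memory T cells and myeloid cells, was 71.5 CPM in Naïve and 3.58 CPM in ConA+Veh (log2 ratio -4.32, -4.95 to -3.73), and *Gm20400*, an antisense transcript on chromosome 6 (142161493 to 142173796), was 118 CPM in Naïve and 3.83 CPM in ConA+Veh (log2 ratio -4.94, -5.54 to -4.39); because reads of an antisense transcript and its partner may not be separable here, the latter is uncertain. *Cd4* and *Cd8a* stayed within 2-fold, at -0.58 and 0.84. Of the regulatory T cell markers *Ctla4*, *Il2ra* and *Tnfrsf4*, which activated T cells also express, were higher, and *Ikzf2* was -0.58. How far the makeup of the T gate and the level per cell contributed was not tested.

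The α-globin *Hba-a2* came out lowest in the T gate (-5.00), on 355 of 359 Naïve UMIs in 1 cell. Leaving out the highest cell of each library turned the ratio to 0.92, that of *Hba-a1* to 3.49 and that of *Hbb-bs* to 5.07, so no direction is read from globin in T cells.

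NK cells had higher cytotoxic effectors and lower chemokines. Of the cytotoxic granule and chemokine list, 7 of 15 genes were at least 2-fold higher in the NK gate and 2 lower (median 0.71 against 0.14 for all genes). Genes of this gate could reach the minimum through ConA+Veh alone, so this count and median are not used as support. The sum over the whole list of 18 had a log2 ratio of 0.34 (0.31 to 0.38). *Gzmb* was 1473 CPM in Naïve and 6424 CPM in ConA+Veh (log2 ratio 2.12, 1.97 to 2.28), *Gzma* 7633 CPM in Naïve and 21025 CPM in ConA+Veh (log2 ratio 1.46, 1.39 to 1.53) and the pore-forming perforin *Prf1* 1.17 on the log2 scale. *Serpinb9* (1.11) and *Serpinb6b* (1.21), granzyme inhibitors that shield the killer cell, were higher with them, and so was the granule proteoglycan *Srgn* (1.25). The chemokines *Ccl5* (17689.6 CPM in Naïve and 8477 CPM in ConA+Veh, log2 ratio -1.06, -1.12 to -1.01) and *Ccl3* (1074 CPM in Naïve and 283 CPM in ConA+Veh, log2 ratio -1.93, -2.19 to -1.67) were lower. *Ctla4*, an inhibitory receptor known best from T cells, was 11.8 CPM in Naïve and 146 CPM in ConA+Veh in the NK gate (log2 ratio 3.63, 2.04 to 5.93), on 3 and 118 UMIs, with UMIs in 3 of 130 and 47 of 235 cells. The T list summed to 174 CPM in the Naïve and 134 CPM in the ConA+Veh NK gate. *Pclaf*, a PCNA-associated factor of replicating cells, went from 0 to 124 UMIs, at least 12.98-fold higher against a floor of 3 UMIs. *Il18rap*, a chain of the interleukin-18 receptor through which NK cells are driven to make interferon-γ, was 328 CPM in Naïve and 84.3 CPM in ConA+Veh (log2 ratio -1.96, -2.44 to -1.48), and *Cd160*, an activating receptor of tissue NK cells, was lower as well (-1.42).

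Genes of granulocyte precursors were higher in the myeloid gate. The 9 granulocyte progenitor genes, whatever their UMIs, summed to 365 CPM in Naïve and 2443 CPM in ConA+Veh. Of them 8 reached the minimum, mostly through their ConA+Veh counts, so the number of higher genes is not used as support. *Elane*, neutrophil elastase (chromosome 10, 79886247 to 79888215, plus strand), which is transcribed in promyelocytes and not in mature neutrophils, had 1 UMI in Naïve and 569 in ConA+Veh (log2 ratio 6.77, 4.29 to 12.08), the latter in 42 of 295 cells; 1 cell held 157 of them. *Mpo*, myeloperoxidase, had 1 and 375 UMIs (log2 ratio 6.17, 3.68 to 11.48) and *Ctsg*, cathepsin G, 9 and 569 UMIs (log2 ratio 3.60, 2.67 to 4.74). *Prtn3*, proteinase 3, was 122 CPM in Naïve and 993 CPM in ConA+Veh (log2 ratio 3.02, 2.66 to 3.41). *Elane* stood at 879 CPM in ConA+TCDD and 103 CPM in ConA+FICZ, and the list summed to 5001 CPM in ConA+TCDD and 2780.2 CPM in ConA+FICZ. In the B gate, which should lack these genes, the list summed to 1.51 and 11.2 CPM. Mature neutrophil genes did not follow within the gate: the list had a median of -0.06 and none of 11 genes passed 2-fold in either direction, with sums of 15151 and 16069 CPM.

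Other inflammatory genes of the myeloid gate were split. Of 24 recruitment and inflammation genes, 4 were at least 2-fold higher and 3 lower, beside 4.71% higher and 6.05% lower of all genes there. *Saa3*, an acute-phase serum amyloid made by macrophages, was 40.8 CPM in Naïve and 228 CPM in ConA+Veh (log2 ratio 2.48, 1.86 to 3.18), *Spp1*, osteopontin, 69.9 CPM in Naïve and 367 CPM in ConA+Veh (log2 ratio 2.39, 1.91 to 2.92; 3.93 without the highest cell of each library), and the monocyte attractant *Ccl12* 1.60 on the log2 scale, while *Ccr2*, the receptor that brings monocytes out of the marrow, was 472 CPM in Naïve and 185 CPM in ConA+Veh (log2 ratio -1.35, -1.57 to -1.12) and fibronectin *Fn1* -1.44. *Il1b* (0.21), *Tnf* (-0.66) and *Arg1* (-0.23) stayed within 2-fold. The complement chains *C1qb* (1004 CPM in Naïve and 2003 CPM in ConA+Veh) and *C1qc* (437 CPM in Naïve and 945 CPM in ConA+Veh), made by Kupffer cells, had log2 ratios of 0.996 and 1.11; *C1qb* UMIs came from 14 of 101 Naïve and 173 of 295 ConA+Veh cells. *Clec4f* and other strict Kupffer cell genes did not reach the minimum, with 5 of 17 list genes doing so. *Pf4*, platelet factor 4 (chromosome 5, 90772435 to 90773383, plus strand), had the lowest ratio, 320.3 CPM in Naïve and 5.60 CPM in ConA+Veh (log2 ratio -5.84, -6.71 to -5.07), but 107 of its 165 Naïve UMIs lay in 1 cell, and without the highest cell of each library the log2 ratio was -4.78. *S100a4* (493 CPM in Naïve and 80.6 CPM in ConA+Veh, log2 ratio -2.61, -2.88 to -2.35) and *Il17ra*, the interleukin-17 receptor chain (245 CPM in Naïve and 51.1 CPM in ConA+Veh, log2 ratio -2.26, -2.62 to -1.90), were lower across many cells, with UMIs in 58 and 63 of 101 Naïve cells.

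Over all cells, transcripts of the liver parenchyma were split, with more of them lower than higher. Of 22 hepatocyte genes at the minimum, 13 were at least 2-fold lower and 5 higher, and the list summed to 1174 CPM in Naïve and 487 CPM in ConA+Veh. The methyl-cycle enzymes *Bhmt* (63.8 CPM in Naïve and 0.467 CPM in ConA+Veh, log2 ratio -7.09, -8.23 to -6.15) and *Gnmt* (106 CPM in Naïve and 0.779 CPM in ConA+Veh, log2 ratio -7.08, -7.93 to -6.35) and the fatty acid binding protein *Fabp1* (107 CPM in Naïve and 3.32 CPM in ConA+Veh, log2 ratio -5.01, -5.40 to -4.63) were lower; *Bhmt* UMIs lay in 72 of 2086 Naïve cells. The acute-phase genes *Saa2* (3.19 CPM in Naïve and 18.3 CPM in ConA+Veh, log2 ratio 2.52, 1.85 to 3.27), *Saa1* (2.15) and the fibrinogen chain *Fgb* (7.06 CPM in Naïve and 30.5 CPM in ConA+Veh, log2 ratio 2.11, 1.66 to 2.60) were higher, although albumin *Alb* was -1.09. *Saa2*, *Saa1* and *Fgb* thus went against the lower sum of the list. Other acute-phase genes of the list, such as *Fga*, *Fgg* and *Hp*, are not reported here. Nothing is therefore read about acute-phase genes as a group. In ConA+FICZ the hepatocyte list summed to 6144 CPM, and in ConA+TCDD to 181 CPM. *Akr1c6*, a hepatic steroid dehydrogenase, went from 109 UMIs to 0, at least 118-fold lower against the floor of 3 UMIs.

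Endothelial markers were lower over all cells, with 8 of 12 at least 2-fold lower (median -1.69). *Clec4g*, a lectin of liver sinusoidal endothelium, had 368 UMIs in 37 Naïve cells and 2 in ConA+Veh (log2 ratio -9.22, -12.27 to -7.35), and *Stab2*, the sinusoidal scavenger receptor, was 34.1 CPM in Naïve and 2.08 CPM in ConA+Veh (log2 ratio -4.04, -4.56 to -3.54). *Egfl7* (-0.48) and *Lyve1* (-0.46), also expressed by endothelium, stayed within 2-fold. Neutrophil markers were higher over all cells, with 4 of 12 past 2-fold and a sum of 1769.9 and 4076 CPM, among them the alarmin *S100a8* at 616 CPM in Naïve and 1481 CPM in ConA+Veh (log2 ratio 1.27, 1.22 to 1.32). Some of the highest ratios over all cells came from very few cells. *Tagln*, transgelin of smooth muscle, had 1 and 328 UMIs (log2 ratio 6.66, 4.18 to 11.97), the latter in 10 cells, and *Acta2*, smooth muscle actin, 7 and 468 UMIs (log2 ratio 4.37, 3.32 to 5.69), with 255 in 1 cell. *Cxcl13*, the B cell attractant, had 0 and 273 UMIs, of which 269 lay in 1 cell, and the 222 Naïve UMIs of *Ccl21a*, a lymphoid chemokine, lay in 1 cell.

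The aryl hydrocarbon receptor pathway, on which the drug-treated mice of the series bear, had few genes with enough UMIs. None of its 3 genes at the minimum in the B gate, 3 in the T gate and 2 in the myeloid gate passed 2-fold. The receptor *Ahr* was 17.7 CPM in Naïve and 31.2 CPM in ConA+Veh in the B gate (log2 ratio 0.82, 0.33 to 1.33) and 16.01 CPM in Naïve and 25.8 CPM in ConA+Veh in the T gate (log2 ratio 0.69, 0.12 to 1.31), and *Tiparp*, its target that limits the response, had log2 ratios of -0.35 (B), 0.13 (T) and -0.43 (myeloid). The median of all genes was -0.19 in the B gate and -0.05 in the T gate, so *Ahr* lay above both.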

How the data were processed

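Per the labels and the file headers, the authors made droplet single-cell RNA-seq libraries from the 5′ end of transcripts and obtained UMI counts from Cell Ranger 3.0.2 on mm10 (version from a file header, build from the submitters' processing notes). The deposited values are raw UMI counts of filtered barcodes, with no normalization; no further filter was applied to cells. Counts were summed per library over all cells and over each gate and divided by the compartment's total to give CPM. The log2 ratio has an exact interval (95%) from the binomial distribution of both sums, with a sum of 0 set to a floor of 3 UMIs (Python 3.11.15, numpy 2.4.6, scipy 1.17.1), and was tested on simulated data. Full gate rules asked for markers of 2 or more genes (B, myeloid), at least 1 UMI of *Cd3e* or *Trac* (T) or none of them (NK). No doublet caller was run. Gates left out cells with over 1 UMI of other lists, except between the T and NK lists. There the T gate asked only for more T than NK list UMIs, and the NK gate only for no *Cd3e* or *Trac*. An alternative left out the top 2% of cells by UMIs. The genes named are the 10 largest rises and falls of each compartment and those shared by all 4 gates, without receptor segments and gate genes, the 6 widest opposite changes, and members of the gene lists. The genes, gene lists and gates were chosen with earlier results of these data known. Alternatives changed scaling, cell filters, gates and the UMI minimum. Coordinates are from GENCODE M21 (GRCm38, which mm10 is). *Mx2*, *Cxcl11* and *Clec7a* are not analysed here.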

Additional observations from a re-analysis of the deposited data

Results flagged for a closer look

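Of the genes with at least 100 UMIs in a pair of gates, 6 showed the widest opposite differences between the gates of the same libraries; with 1 library a side none of these differences between gates was tested. *Ccl5* had a log2 ratio of 3.25 in the myeloid gate and -2.36 in the T gate; the myeloid value rests on 7 Naïve UMIs and on 346 ConA+Veh UMIs in 41 of 295 cells, 1 of which held 94. *Serpina3g*, a serine protease inhibitor of activated leukocytes, was at 2.09 in the myeloid gate (19.4 CPM in Naïve and 82.5 CPM in ConA+Veh) and at -2.51 in the T gate (57.7 CPM in Naïve and 10.1 CPM in ConA+Veh). *Tgtp2*, an interferon-inducible GTPase, was at 1.78 in the B gate (10.9 CPM in Naïve and 37.6 CPM in ConA+Veh) and at -1.91 in the T gate (32.6 CPM in Naïve and 8.64 CPM in ConA+Veh). *Irf4*, a transcription factor of activated lymphocytes and plasma cells, was at 1.35 in the T gate (13.1 CPM in Naïve and 33.5 CPM in ConA+Veh) and at -1.98 in the B gate (188 CPM in Naïve and 47.9 CPM in ConA+Veh), with UMIs spread over 164 ConA+Veh T cells and 339 Naïve B cells.

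For the others, 1 cell held a large share of the UMIs on one side. *Ccl3* was at 4.34 in the T gate and -1.93 in the NK gate, with 200 of 282 ConA+Veh T gate UMIs in 1 cell; without the highest cell of each library the T gate ratio was 3.15 and the NK gate ratio -2.09. *Hbb-bs*, adult β-globin, was at 3.04 in the B gate and -2.03 in the T gate, with 1060 of 1064 Naïve T gate UMIs in 1 cell, and without the highest cells the T gate ratio was 5.07.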

How the results depend on the processing

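Counts of genes past 2-fold moved by over 1.5 times under some alternatives. With every cell weighted alike, higher genes numbered 1023 in the T gate and 665 in the myeloid gate, and lower genes 515 in the B gate. Centred on the median gene, the B gate had 633 higher and 540 lower genes. Without the top 2% of cells by UMIs, 1006 genes were higher in the T gate and 618 in the myeloid gate. With gates from cells thinned to 1000 UMIs, lower genes numbered 53 (NK), 352 (T) and 138 (myeloid), and the log2 ratios of the gate shares were -1.01 (B), -0.11 (T, reversed) and 0.70 (myeloid). A minimum of 50 UMIs gave 258 higher NK genes, 342 higher myeloid genes and 264 (NK), 1066 (T) and 509 (myeloid) lower genes. A minimum of 200 UMIs gave 76 (NK) and 113 (myeloid) higher genes and 488 (B), 41 (NK), 368 (T) and 112 (myeloid) lower genes. The other 75 counts and 13 shares under alternatives stayed within 1.5 times the main count or within the interval, as did 1562 values of named genes, while 248 moved out of their interval with their direction kept or under 2-fold; 1151 list medians moved by less than 0.1 and 523 by more. Leaving out the highest cell gave only a bound, with 1 side at 0, for 18 values of named genes. Of the genes named, *Hba-a1* (3.49), *Hba-a2* (0.92) and *Hbb-bs* (5.07) reversed in the T gate without the highest cell of each library, an alternative chosen after seeing the data, and *Hbb-bs* (0.81) also with every cell weighted alike; the cause was not tested beyond the cell counts given.

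No paired analysis was possible because each group is 1 library. With 1 library a side, differences between mice, days and libraries cannot be told apart from ConA, and the intervals cover counting error only. Naïve had fewer UMIs per cell and fewer myeloid and NK cells, which limits low genes there, and the NK gate had 1481 genes at the UMI minimum.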
